A study of Mus musculus with 24 samples.

Results

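The mouse genes whose symbols are Zfp followed by a number encode zinc finger proteins, and their levels were followed in macrophages given LPA or LPS. Of the 11590 genes in the deposited count table, 292 symbols had this form, and 291 of them were kept as members after Zfp36 was left out. Zfp36 encodes tristetraprolin, which binds messenger RNA (mRNA) through a different kind of finger and takes part in its decay. The members were chosen by name alone, and all 291 were tested. Zfp966 and Zfp967, near-identical KRAB genes on chromosome 2, have the same count in every library, so 1 measurement stands for 2 members. Both count among those that fell with LPS in both genotypes, and neither was called in any other comparison. Genes with other names of the same protein type, such as the Zbtb genes, were not members.

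Macrophages had been grown from the bone marrow of male C57BL/6 mice for 7 days with M-CSF, their growth factor. They lacked the G protein-coupled receptor GPR35 (KO) or were wild type (WT). On day 7, some cells of each genotype were given 10 µM of the signalling lipid lysophosphatidic acid (LPA) for 4 h. Others were given 10 ng/mL of lipopolysaccharide (LPS), a bacterial wall component, for the same time, or nothing (Cont). This gave the 6 groups KO LPA, KO LPS, KO Cont, WT LPA, WT LPS and WT Cont, with 4 mRNA libraries each. All groups share the sex, the strain and the M-CSF culture. The sources used here do not say whether the libraries of a group came from separate mice, so p-values measure the spread between these libraries, which may be technical.

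A C2H2 zinc finger is a short loop of protein held by a zinc ion that reads a few bases of DNA, and most of these proteins carry several in a row. Many in mouse also carry a KRAB domain, which binds the corepressor TRIM28. TRIM28 in turn brings in the histone methyltransferase SETDB1 and other factors that silence DNA, often at retroelements and imprinted genes. KRAB genes lie in clusters that grew by duplication, whereas members without KRAB include broadly expressed promoter factors and proteins that act on RNA or on ubiquitin.

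The libraries held 15167683 to 46697165 counts, and every KO library was shallower than every WT library. KO libraries were sequenced on 1 lane and WT libraries on 2, so lane, depth and genotype cannot be told apart. Gpr35 lay at 0 to 0.205 CPM (counts scaled to a common depth with edgeR's TMM library sizes) in the 12 KO libraries. It lay at 1.34 to 2.78 CPM in WT libraries that were untreated or given LPA, and at 0.296 to 0.636 CPM in WT libraries given LPS. The summed CPM of 8 macrophage markers was 30920 to 47250 in every library, against 169 to 537 for the 8 neutrophil markers of 9 listed that were in the table. Of the dendritic (Kmo), lymphoid (Cd4) and mast cell (Hdc) lists 1 gene each was in the table, of the erythroid and megakaryocyte list 2 of 6 (Pf4 and Ppbp) and of the stromal list 5 of 7. Some of these moved with LPS. Cd4 lay at 29.2 to 37.6 CPM in WT LPS, against 75.5 to 92.5 CPM in WT Cont. Pf4 and Ppbp summed to 159 to 186 CPM in WT LPS, against 74.7 to 93.7 CPM in WT Cont. Hdc, the histamine-forming enzyme, lay at 44.0 to 49.5 CPM in WT LPS, against 1.40 to 2.49 CPM in WT Cont. The part of other cells in the results below was not tested. In bulk RNA, fewer cells of a type and less RNA per cell cannot be told apart.

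The members were sparse transcripts. Their mean over all libraries ranged from 0.607 to 247 CPM with a median of 9.02 CPM, against a median of 26.2 CPM for the other 11299 genes, and 218 of the 291 lay below 20 CPM. Per kilobase of the deposited gene length the median was 2.5 RPKM (CPM per kilobase). On that length-corrected scale the highest mean levels were 62.0 RPKM for Zfp263, 51.4 RPKM for Zfp710, 39.0 RPKM for Zfp207, which helps chromosomes align in mitosis, and 32.6 RPKM for Zfp800. A translated transcript was found for 290 members. Of these, 180 matched a KRAB profile and 110 did not, and 12 held a SCAN pattern, a domain through which such proteins pair. A missing match does not show that the domain is absent. In the class counts below, members without KRAB are those without a match. The members held a median of 11 fingers.

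LPS lowered most of the members. In WT cells 206 of the 291 (70.8%) fell and 42 (14.4%) rose, against 43.6% and 40.6% of all genes tested (edgeR quasi-likelihood test, Benjamini-Hochberg adjusted p below 0.05 over all 11590 genes). The median log2 change of the members was -0.58, against -0.02 for the other genes. In KO cells 206 fell and 40 rose, against 43.0% and 39.3% of all genes, with a median of -0.62. At least a 2-fold fall was found for 97 of the called members in WT cells and a rise of that size for 10. The shares of all genes at that size are not given here, so these 2 counts do not set the members apart. In WT cells all 4 LPS libraries lay below all 4 untreated ones for 205 members (70.4%) and above them for 37 (12.7%). For the other genes these shares were 41.0% and 39.8%.

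Scarce genes fell more often than abundant ones throughout the table, so the members were set beside other genes of the same abundance. Of the 71 members with 5 to 10 CPM, 80.3% fell with LPS in WT cells and 11.3% rose, against 58.9% and 24.4% of the 1240 other genes in that range. Below 2 CPM, 81.2% of 32 members fell, against 55.7% of the other genes. At 50 CPM and above more members rose than fell, at shares near those of the other genes. There 13 of 20 members (65.0%) rose and 5 (25%) fell, against 61.6% and 25.4% of the other genes. Weighting each range by its number of members gave 52.5% lower and 30.5% higher for the other genes.

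**Figure D1:**
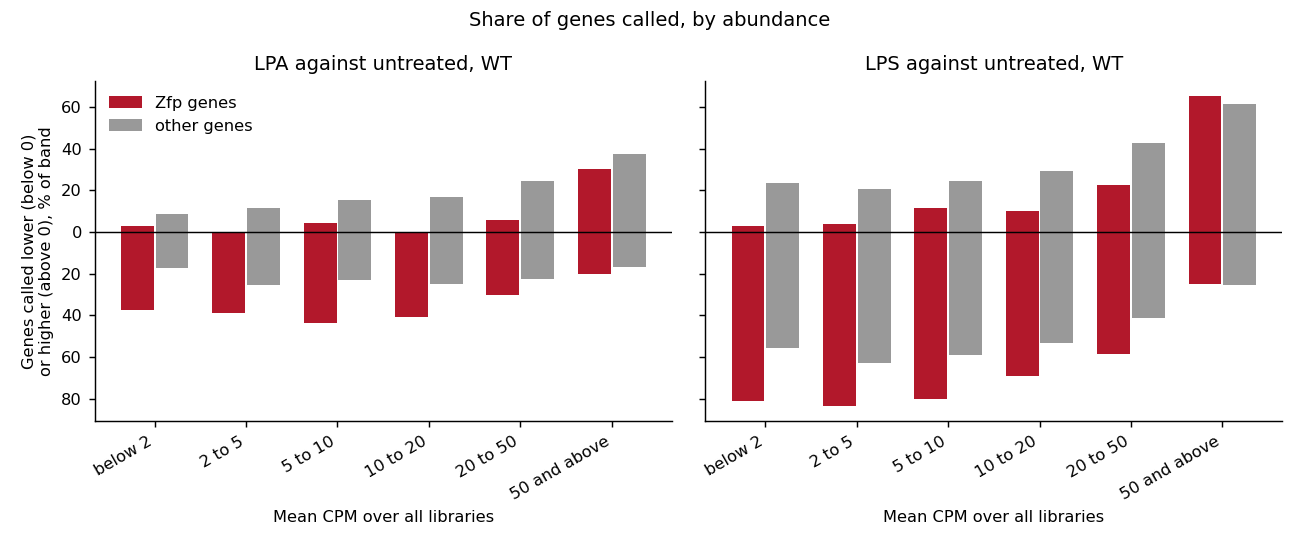
Share of genes called higher (bars above 0) and lower (bars below 0) within each range of mean CPM, for Zfp genes (red) and other genes (grey), with LPA (left) or LPS (right) in WT cells. With LPS, 80.3% of the Zfp genes of 5 to 10 CPM were lower, against 58.9% of other genes, whereas at 50 CPM and above 25% were lower, against 25.4%.

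How the members' LPS counts divide depends on the scaling, though over all members falls outnumbered rises under each scaling used. With library totals alone in place of TMM factors, the median of all genes moved to -0.59 (log2) for LPS in WT cells. The members then divided into 15 higher and 264 lower in WT cells and into 14 higher and 257 lower in KO cells. Most of the table fell on that scale too. Of all 11590 genes 2387 were higher and 7847 lower in WT cells, and 2428 and 7627 in KO cells. The members' median of -1.14 stayed below that of all genes.

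Over all abundances, a larger share of the KRAB members than of the others fell. In WT cells 143 of the 180 KRAB members (79.4%) fell with LPS and 15 rose, with a median log2 change of -0.83. Of the 110 without a KRAB match, 62 (56.4%) fell and 27 (24.5%) rose, with a median of -0.24. KRAB members were also scarcer, with a median of 6.49 CPM against 20 CPM. Among members of 2 to 20 CPM, 83.1% of 136 KRAB members fell, against 62.0% of 50 members without KRAB and 57.6% of 3918 other genes. At 20 CPM and above the order was not the same, since 8 of 18 KRAB members (44.4%) fell, with a median of -0.08, against 28 of 55 members without KRAB (50.9%), with a median of -0.12. Of 53 KRAB genes with other names, 43 (81.1%) fell and 2 rose, with a median of -1.02. These shares are descriptions, and their differences were not tested. The 39 members that share over 20% of their 51-base words with another gene have uncertain counts. Without them and the member with no transcript, 172 members (68.5%) fell and 40 rose.

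The summed level followed the same division. KRAB members together made up 1589 ± 37.9 CPM in WT LPS, against 2054 ± 12.1 CPM in WT Cont (SD, n = 4 each). In KO cells the sums were 1613 ± 32.8 CPM with LPS and 2119 ± 61.1 CPM untreated. The members without KRAB summed to 3866 ± 73.1 CPM in WT LPS, against 3380 ± 52.0 CPM in WT Cont. The sum over all members was 5457 ± 95.0 CPM in WT LPS and 5436 ± 59.1 CPM in WT Cont, a difference smaller than the spread between libraries. Both last results depend on the TMM factors. Per 1000000 deposited counts, the members without KRAB summed to 2954 ± 71.0 in WT LPS, against 3797 ± 94.6 in WT Cont, and all members to 4170 ± 110 in WT LPS, against 6108 ± 127 in WT Cont. The KRAB sum was lower with LPS on that scale too, at 1214 ± 45.1 in WT LPS, against 2308 ± 35.7 in WT Cont. The LPS libraries of each genotype lay apart from the untreated ones in both class sums. For the number of fingers no such order was seen. In WT cells the share that fell was 73.0% for 0 to 4 fingers, 60.3% for 5 to 9, 75.2% for 10 to 14 and 74.2% for 15 or more.

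**Figure D2:**
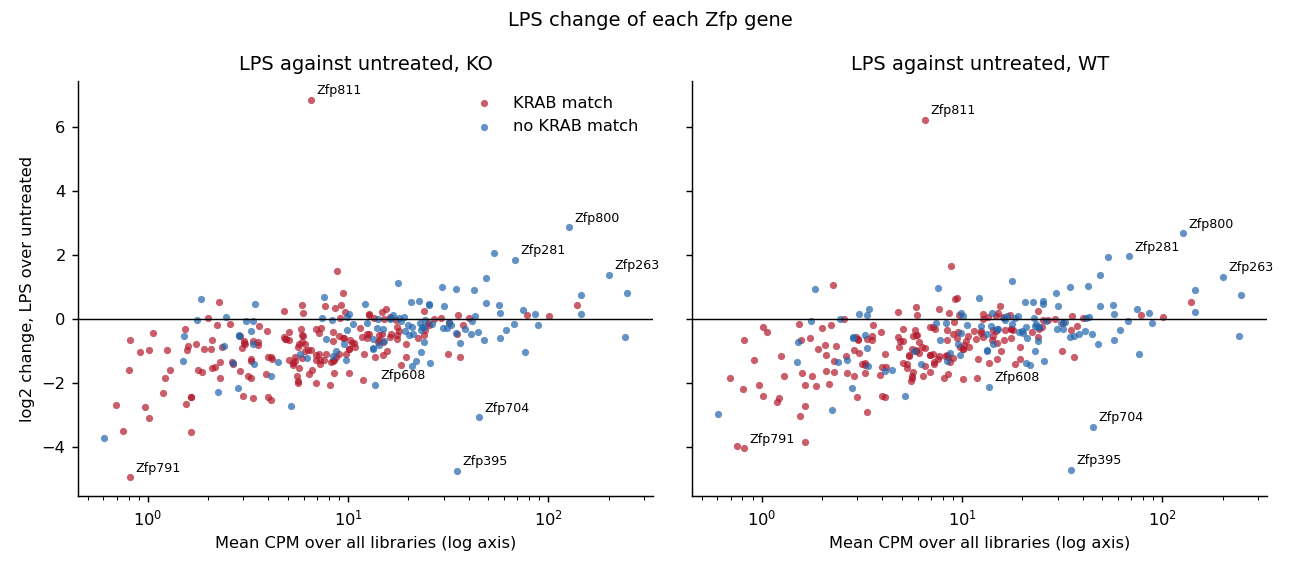
log2 change with LPS over untreated cells of each Zfp gene (vertical) against its mean CPM over all libraries on a log axis, in KO (left) and WT (right) cells. Genes with a KRAB match (red) lie mostly below 0 in both genotypes, Zfp811 lies highest at 6.22 in WT cells, and the abundant genes without KRAB (blue) reach 2.68 for Zfp800.

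The largest rise belonged to a KRAB gene. Zfp811, for which no function is given here, had 23.6, 21.2, 17.5 and 16.2 CPM in the WT LPS libraries, against 0.262, 0.209, 0.272 and 0.301 CPM in the WT Cont libraries. In KO cells it had 18.4, 17.0, 20 and 15.3 CPM with LPS, against 0, 0.159, 0.189 and 0.246 CPM untreated. Each LPS library lay far above each untreated one. The log2 change was 6.22 ± 0.23 (SE) in WT and 6.85 ± 0.29 in KO cells (edgeR adjusted p = 1.01e-16 and 8.30e-16). The gene lies on chromosome 17 (32795676 to 32810057, assembly GRCm38.p6), and 0.516% of its 51-base words occur in another gene.

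The other large rises were of members without a KRAB match, apart from Zfp719. Zfp800 had 265, 282, 296 and 265 CPM in WT LPS, against 43.6, 45.9, 43.7 and 39.4 CPM in WT Cont, a log2 change of 2.68 ± 0.09 (edgeR adjusted p = 1.64e-17). Zfp281, a factor that binds GC-rich promoters and is best known from stem cells, had 134, 145, 153 and 133 CPM with LPS, against 39.5, 38.8, 33.1 and 33.3 CPM untreated, a change of 1.96 ± 0.08. Zfp131, which carries a BTB domain through which proteins pair, had 110, 104, 103 and 87.6 CPM, against 26.9, 26.8, 26.2 and 24.9 CPM, a change of 1.95 ± 0.07. For each of the 3 genes the groups were far apart. In KO cells the log2 changes were 2.87 ± 0.09 for Zfp800, 1.85 ± 0.08 for Zfp281 and 2.05 ± 0.07 for Zfp131. Zfp719 (KRAB) rose by 1.66 ± 0.09 and Zfp513 by 1.37 ± 0.10 in WT cells. Zfp513 overlaps Snx17 on the opposite strand, and the strand setting of the counting is not given in the sources used here.

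RefSeq promoter windows (GRCm38.p6, 250 bases before to 50 after a start) were found for 244 members, 296 windows in all. Shown are the windows of the KRAB gene that rose most, of the largest rise without KRAB among genes with a single window, and of the KRAB gene with a single window that fell most. Each runs 5′ to 3′ on the gene's strand, and capitals mark CCAAT and GGGCGG boxes on either strand.
Zfp811, chr17:32809882-32810181, minus strand: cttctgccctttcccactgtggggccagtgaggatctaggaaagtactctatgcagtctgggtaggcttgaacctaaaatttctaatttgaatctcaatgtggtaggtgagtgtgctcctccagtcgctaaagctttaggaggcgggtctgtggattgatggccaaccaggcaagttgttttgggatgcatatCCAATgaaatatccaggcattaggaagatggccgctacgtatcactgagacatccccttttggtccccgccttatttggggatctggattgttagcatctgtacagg
Zfp281, chr1:136624651-136624950, plus strand: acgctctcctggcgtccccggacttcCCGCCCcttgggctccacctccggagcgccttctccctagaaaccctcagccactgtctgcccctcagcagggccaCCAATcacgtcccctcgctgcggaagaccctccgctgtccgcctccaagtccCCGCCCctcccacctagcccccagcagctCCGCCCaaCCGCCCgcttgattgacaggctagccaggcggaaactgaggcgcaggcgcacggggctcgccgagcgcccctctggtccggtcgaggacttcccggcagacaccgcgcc
Zfp30, chr7:29783718-29784017, plus strand: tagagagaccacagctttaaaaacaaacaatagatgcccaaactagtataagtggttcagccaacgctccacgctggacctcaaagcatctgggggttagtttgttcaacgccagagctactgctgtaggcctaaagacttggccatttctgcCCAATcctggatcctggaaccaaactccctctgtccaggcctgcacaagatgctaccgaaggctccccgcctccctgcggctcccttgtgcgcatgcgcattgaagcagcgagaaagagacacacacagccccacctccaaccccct

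The 2 KRAB windows, of the gene that rose most and of one that fell, each held 1 CCAAT box and no GGGCGG box, with 48.3% and 54.0% G and C. The window of Zfp281 held 1 CCAAT box and 4 GGGCGG boxes and was 70.7% G and C. CCAAT, the box of the factor NF-Y, was found in 101 of 183 windows of KRAB members (55.2%), in 43 of 111 windows of members without KRAB (38.7%), in 37.8% of 11397 windows of other genes of the count table, and in 37.4% of all 32851 RefSeq windows. GGGCGG, the box of Sp1, was found in 36.1% of the KRAB windows, 63.1% of the windows without KRAB, 62.9% of the windows of other genes of the count table and 35.7% of all RefSeq windows. The median G and C of these windows went in the same order, at 52.7%, 62.3%, 60.7% and 52.7%, and its part in these shares was not tested. The NF-κB letters GGGANTTTC were found in 0% of 49 windows of members that rose with LPS in WT cells, 0.98% of 204 windows of those that fell, 1.06% of the windows of other genes of the count table and 1.11% of all RefSeq windows. The letters were searched on both strands, and a box was counted whether or not it overlapped another. A match is a description of the letters and not a site.

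The largest falls among abundant members were of 2 related genes without a KRAB match. Zfp395 and Zfp704 belong to a small family of DNA-binding proteins with 1 finger found in each here. Zfp395 had 1.40, 2.15, 1.98 and 2.92 CPM in WT LPS, against 56.7, 54.0, 53.0 and 57.9 CPM in WT Cont. Zfp704 had 6.80, 6.03, 5.76 and 7.71 CPM, against 62.4, 68.7, 68.2 and 72.0 CPM. Neither gene's groups overlapped. The log2 changes were -4.71 ± 0.18 for Zfp395 and -3.36 ± 0.15 for Zfp704 (edgeR adjusted p = 3.72e-16 and 2.75e-15), and in KO cells -4.74 ± 0.20 and -3.06 ± 0.15.

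The other large falls were of scarce KRAB genes. Zfp667 had 0.035, 0.259, 0.224 and 0.106 CPM in WT LPS, against 2.05, 2.00, 2.5 and 2.5 CPM in WT Cont, a log2 change of -3.84 ± 0.33. Zfp30 had 0.0701, 0.0740, 0.112 and 0.0352 CPM, against 1.16, 1.01, 1.71 and 0.952 CPM, a change of -3.97 ± 0.44. Zfp791 changed by -4.03 ± 0.39 and Zfp108 by -3.02 ± 0.28. In LPS libraries these genes rest on few counts each. In KO cells the rule also named Zfp532 (-3.71 ± 0.58) and Zfp647 (-3.08 ± 0.32). Zfp532 has no KRAB match.

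**Figure D3:**
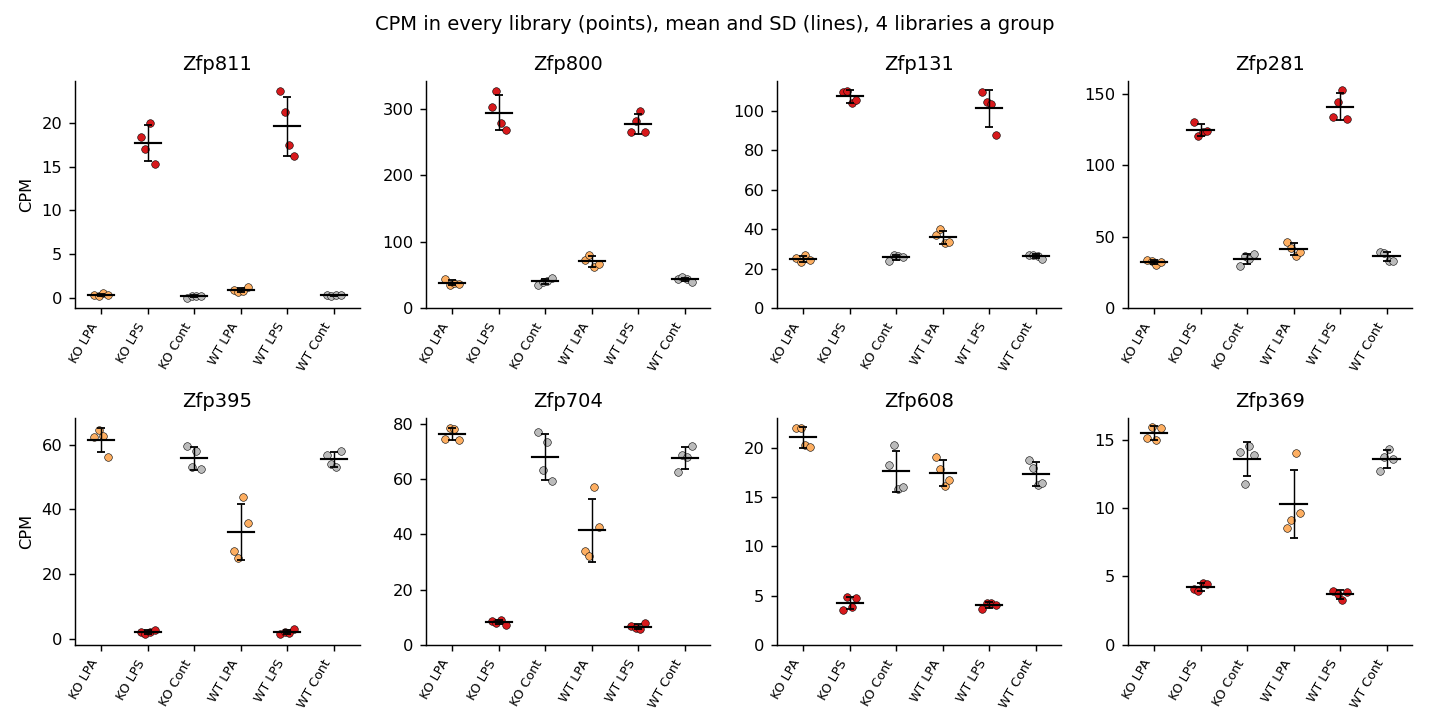
CPM of 8 Zfp genes in each library (points), with the mean and SD of the 4 libraries of a group (lines), by genotype and treatment. Zfp811, Zfp800, Zfp131 and Zfp281 are high in the LPS libraries of both genotypes, and Zfp395, Zfp704, Zfp608 and Zfp369 are low in them; with LPA, Zfp395 is at 25 to 43.9 CPM in WT and at 56.0 to 64.5 CPM in KO libraries.

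The role lists below are set against the 43.6% of all genes that fell and the 40.6% that rose with LPS in WT cells. Of 5 KRAB members of imprinting and retroelement silencing in the table, 3 (60%) fell with LPS in WT cells and 1 (20%) rose. Zfp809, which silences proviruses of murine leukaemia virus, had 6.79 CPM on average in WT LPS, against 12.1 CPM in WT Cont (log2 change -0.83 ± 0.09), and Zfp932 changed by -0.89 ± 0.12, although 54.8% of its 51-base words occur in another gene. Zfp568, which represses a placental transcript of Igf2, changed by 0.17 ± 0.07 (edgeR adjusted p = 0.025). That call is lost without WT Cont replicate 1 or 3 or WT LPS replicate 1 or 3 (adjusted p = 0.053 to 0.081). Its sign turns with library totals alone (-0.38). Zfp445, which guards imprints, had 101.5 CPM with LPS, against 97.4 CPM untreated (0.06 ± 0.05, adjusted p = 0.25). Zfp708 fell by 0.84 on the log2 scale, but all of its 51-base words occur in another gene.

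Of 18 members listed by role as promoter and chromatin factors without KRAB, 7 (38.9%) rose and 9 (50%) fell with LPS in WT cells. These shares lay near those of all genes. That a gene lacks KRAB is taken from the list here and may not hold for each, Zfp263 included. Besides Zfp281 and Zfp131, Zfp263 rose by 1.32 ± 0.07, to 299.7 to 332 CPM in WT LPS, against 117 to 141 CPM in WT Cont. Zfp608 had 3.61, 4.25, 4.22 and 4.01 CPM in WT LPS, against 18.8, 18, 16.3 and 16.5 CPM in WT Cont, a change of -2.11 ± 0.09. Zfp143, an activator of small nuclear RNA promoters, changed by 0.52 ± 0.04, a rise that depends on the scaling. Its raw counts were 835, 795, 801 and 760 in WT LPS, against 934, 1039, 790 and 833 in WT Cont. Its change with library totals alone is not given here. Of the 7 members that act on RNA, ribosomes or splicing, 1 (14.3%) rose and 5 (71.4%) fell. Zfp598, the ubiquitin ligase that marks collided ribosomes, changed by -0.32 ± 0.09, and Zfp106, an RNA-binding protein, by -0.55 ± 0.08. Zfp346, which binds double-stranded RNA, changed by -0.46 ± 0.08, and Zfp638 by 0.18 ± 0.05, which turns to -0.37 with library totals alone.

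Of the 5 members of signalling or mitosis, 2 (40%) rose and 3 (60%) fell. Zfp207 rose by 0.92 ± 0.05, and Zfp91, a ubiquitin ligase of the noncanonical NF-κB pathway, by 0.21 ± 0.04, which turns to -0.35 with library totals alone. Zfp369, a partner of the neurotrophin receptor p75, fell to 3.92, 3.70, 3.25 and 3.84 CPM in WT LPS, against 12.7, 13.7, 14.3 and 13.6 CPM in WT Cont (-1.88 ± 0.12). Zfp318, known in B cells for the expression of IgD, changed by -0.57 ± 0.07. Zfp710, the member with the highest mean CPM, changed by 0.75 ± 0.05, and the KRAB gene Zfp871 by 0.54 ± 0.09, which is -0.02 with library totals alone. Zfp36, which is not a member, changed by 1.81 ± 0.11 with LPS in WT cells.

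The partners of KRAB proteins moved in both directions. Of the 19 genes of the silencing machinery in the table, 7 (36.8%) rose and 10 (52.6%) fell with LPS in WT cells, against 40.6% and 43.6% of all genes. Their median level was 50 CPM. Of the other genes at 50 CPM and above, 61.6% rose and 25.4% fell. At 20 to 50 CPM these shares were 42.5% and 41.2%. The difference from genes of similar abundance was not tested. Trim28 averaged 78.5 CPM in WT LPS, against 89.2 CPM in WT Cont (-0.18 ± 0.04). Setdb1 averaged 39.6 CPM, against 84.9 CPM (-1.10 ± 0.06), and the maintenance DNA methyltransferase Dnmt1 33.8 CPM, against 85.3 CPM (-1.34 ± 0.08). Resf1, a partner of SETDB1, averaged 337 CPM, against 122 CPM (1.46 ± 0.07), and the histone deacetylase Hdac1 48.1 CPM, against 20.4 CPM (1.24 ± 0.06).

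On the genome, 195 members lay within 500 kb of another member, and 11 clusters of at least 6 members held 115 of them. In every one of the 11 the median log2 change with LPS in WT cells was below 0, from -1.76 to -0.30. Over all members 228 of 291 lay below 0, so this is not particular to clusters. Other genes inside the spans moved too, where 43.6% of all genes fell and 40.6% rose. These are any genes that are not members, so KRAB genes with other names were not left out. From Zfp712 to Zfp273 (chromosome 13) 5 of 6 fell, from Zfp871 to Zfp414 (chromosome 17) 5 of 5 and from Zfp398 to Zfp775 (chromosome 6) 4 of 4. From Zfp160 to Zfp213 (chromosome 17) 2 of 2 fell, and from Zfp930 to Zfp866 (chromosome 8) 1 of 2. From Zfp551 to Zfp446 (chromosome 7) 2 of 4 fell and 1 rose. On chromosome 7, 12 of 19 fell and 5 rose from Zfp553 to Zfp646, and 2 of 2 rose from Zfp628 to Zfp580. All 8 members from Zfp180 to Zfp94 on chromosome 7 (24081877 to 24316698) fell, with the median of -1.76. The largest cluster, 21 KRAB genes from Zfp160 to Zfp213 on chromosome 17 (21008941 to 23564226), had 16 that fell and 3 that rose. Zfp811 stands among 11 members on chromosome 17 (32765496 to 33631716), of which 8 fell and only Zfp811 and its neighbour Zfp871 rose. Within that cluster Zfp870 changed by -1.06 ± 0.09, Zfp472 by -0.92 ± 0.12 and Zfp763 by -2.91 ± 0.18. Neighbours within 1 cluster thus had LPS changes of opposite sign.

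**Figure D4:**
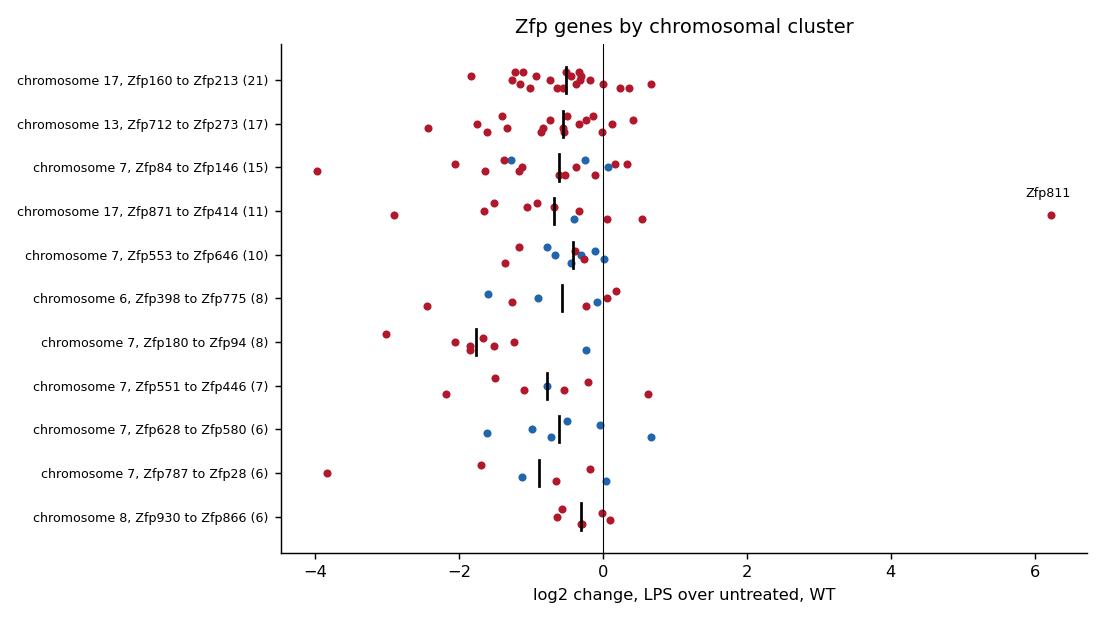
log2 change with LPS over untreated WT cells (horizontal) of each Zfp gene in the 11 chromosomal clusters of at least 6 members, with the number of members in brackets, KRAB genes in red, others in blue and the cluster median as a black bar. All 11 medians lie below 0, and Zfp811 lies apart at 6.22.

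LPA gave smaller changes, and in WT cells most of them were falls. There 109 members (37.5%) fell and 13 (4.47%) rose, against 21.1% and 23.5% of all genes, with a median log2 change of -0.18. Other genes weighted to the same abundance gave 22.7% lower and 17.4% higher. Of the KRAB members 81 (45%) fell and 2 rose, and of those without KRAB 28 (25.5%) fell and 11 rose. In KO cells 1 member was called with LPA, against 2.62% of all genes, and the members' median was 0.01. With the replicate number as a block, 141 members were called in WT cells (125 lower and 16 higher). Of all 11590 genes 6150 were called there (3027 lower and 3123 higher). In KO cells 2 members were called with that block, against 554 of all genes. Zfp608 was the second member (log2 change 0.27 ± 0.07, adjusted p = 0.037).

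The WT LPA libraries were unlike each other. The KRAB members summed to 1718, 1784, 2037 and 1830 CPM in WT LPA replicates 1 to 4, against 2054 ± 12.1 CPM in WT Cont (SD, n = 4). The untreated sums were 2038 to 2063 CPM, so all 4 WT LPA libraries lay below them, replicate 3 by a small margin only. Per 1000000 deposited counts the WT groups overlapped, at 1822 to 2289 in WT LPA and 2256 to 2336 in WT Cont. In KO cells the sums were 2109 ± 27.5 CPM with LPA and 2119 ± 61.1 CPM untreated. The count of 122 members called in WT cells was 75 without WT LPA replicate 1, 74 without replicate 2 and 145 without replicate 3. Single markers of other cells also moved with LPA in WT cells. The summed neutrophil markers were 220 to 266 CPM in WT LPA, against 263 to 479 CPM in WT Cont. Pf4 and Ppbp summed to 118 to 188 CPM in WT LPA, against 74.7 to 93.7 CPM in WT Cont, and Cd4 lay at 57.2 to 68.9 CPM, against 75.5 to 92.5 CPM. Kmo lay at 0.57 to 1.39 CPM in WT LPA, against 2.07 to 3.74 CPM in WT Cont, and Hdc at 2.61 to 4.15 CPM, against 1.40 to 2.49 CPM. In KO cells the 5 stromal and endothelial markers summed to 12.95 to 27.1 CPM with LPA, against 5.66 to 12.2 CPM untreated. In WT cells they summed to 6.58 to 15.2 CPM with LPA, against 7.48 to 13.9 CPM untreated. The part of these markers in the LPA results was not tested.

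The comparisons of LPA and of LPS in WT cells share the WT Cont libraries. Zfp395 had 27.2, 25, 43.9 and 35.8 CPM in WT LPA, against 56.7, 54.0, 53.0 and 57.9 CPM in WT Cont, a log2 change of -0.75 ± 0.13 (edgeR adjusted p = 1.66e-04). Zfp704 had 34.0, 32.1, 57.0 and 42.7 CPM, against 62.4, 68.7, 68.2 and 72.0 CPM, a change of -0.71 ± 0.13. Replicate 3 was the nearest to untreated cells for both genes, and the groups did not overlap. Zfp800 had 72.8, 80.2, 61.5 and 66.0 CPM with LPA, against 39.4 to 45.9 CPM untreated, a rise of 0.70 ± 0.08. Zfp811 had 0.888, 0.679, 0.723 and 1.24 CPM, against 0.209 to 0.301 CPM, a rise of 1.76 ± 0.28.

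Other rises with LPA in WT cells were 0.51 ± 0.07 for Zfp263, 0.45 ± 0.07 for Zfp131, 0.40 ± 0.05 for Zfp407 and 0.39 ± 0.06 for Zfp275. The largest falls were of the scarce genes Zfp30 (-1.12 ± 0.28) and Zfp551 (-0.87 ± 0.21), with Zfp113 at -0.69 ± 0.15. Zfp30 was not called with all libraries thinned to the smallest (adjusted p = 0.055). Zfp532 (-0.90 ± 0.29) was also called, but not without WT LPA replicate 2 (adjusted p = 0.076). Of the abundant members, Zfp710 rose by 0.27 ± 0.05 and Zfp207 by 0.20 ± 0.05. Zfp91 (0.14 ± 0.04) was not called with library totals alone, and Zfp106 (-0.23 ± 0.08) was not called without WT Cont replicate 3 or without WT LPA replicate 1, 2 or 4. Zfp871 did not pass the test (-0.11 ± 0.09). The 1 member called in KO cells was Zfp691, with 4.51, 3.79, 4.62 and 4.66 CPM in KO LPA, against 2.05, 2.48, 2.84 and 2.5 CPM in KO Cont (0.83 ± 0.12, adjusted p = 2.08e-04). In WT cells Zfp691 had 3.13 to 3.73 CPM with LPA and 2.68 to 3.31 CPM untreated, and the difference of both changes, KO minus WT, was called as well (0.65 ± 0.16, adjusted p = 0.0053).

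**Figure D5:**
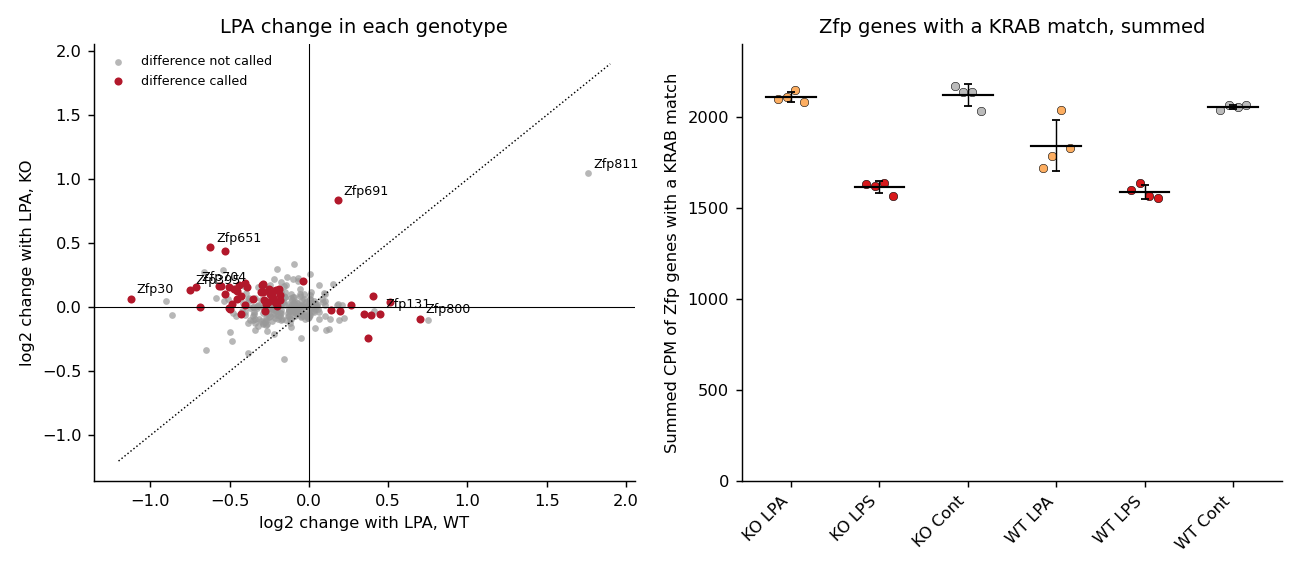
Left, log2 change with LPA of each Zfp gene in WT (horizontal) and KO (vertical) cells, with members in red where the difference of both changes was called and a dotted line of equal change. Right, summed CPM of the KRAB members in each library with group means and SD; the 4 WT LPA libraries spread from 1718 to 2037 CPM, and the KO LPA libraries from 2081 to 2147 CPM.

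Between the genotypes, no member was called in untreated cells, against 0.00863% of all genes (1 gene, Gpr35), and DESeq2 also called none. At an unadjusted p below 0.05 there were 5 of the 291 members, against 314 of all 11590 genes. With LPA, 128 members (44.0%) were higher in KO than in WT cells and 15 (5.15%) lower, against 24.4% and 25.9% of all genes. Other genes weighted to the same abundance gave 27.4% higher and 18.2% lower. Among KRAB members 89 of 180 were higher and 2 lower. With LPS, 1 member was called, against 2.85% of all genes. This was the KRAB gene Zfp78, with 1.19, 1.48, 1.11 and 0.942 CPM in KO LPS, against 0.841, 0.592, 0.598 and 0.352 CPM in WT LPS (0.99 ± 0.23, edgeR adjusted p = 0.022). Zfp78 was not called without KO LPS replicate 2 or 3 or without WT LPS replicate 2, 3 or 4 (adjusted p = 0.053 to 0.077).

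The effect of LPA itself differed between the genotypes for 54 members. The change in KO minus that in WT cells was above 0 for 44 (15.1% of the members) and below 0 for 10 (3.44%), against 12.7% and 15.8% of all genes. In this main fit, other genes weighted to the same abundance gave 13.5% above 0, near the members' share, and 9.78% below 0. With library totals alone 74 members were above 0 and 7 below. More members were above 0 with the replicate block too. The shares of other genes under either setting are not given here, so these counts do not set the members apart. For Zfp800 this difference was -0.79 ± 0.12 (edgeR adjusted p = 1.50e-04), since it had 43.1, 34.5, 37.1 and 36.2 CPM in KO LPA, against 35.1, 39.9, 40.7 and 44.9 CPM in KO Cont. For Zfp395 it was 0.89 ± 0.19 and for Zfp704 0.87 ± 0.18. Zfp395 had 62.5, 64.5, 62.6 and 56.0 CPM in KO LPA, against 52.5 to 59.6 CPM in KO Cont, so the KO groups overlapped. The count of 54 was 35 without WT LPA replicate 2 and 105 without WT LPA replicate 3.

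Further differences were 1.09 ± 0.24 for Zfp651, 0.97 ± 0.26 for Zfp882 and 0.73 ± 0.21 for Zfp658 above 0, and -0.61 ± 0.16 for Zfp593, -0.50 ± 0.10 for Zfp131, -0.47 ± 0.10 for Zfp263 and -0.45 ± 0.09 for Zfp275 below 0. Zfp658 was not called with all libraries thinned to the smallest (adjusted p = 0.076). Zfp30 (1.19 ± 0.41) and Zfp719 (-0.40 ± 0.14) were called as well, but Zfp30 was not called without KO Cont replicate 2, 3 or 4, KO LPA replicate 1, WT Cont replicate 3 or WT LPA replicate 1 or 2. Zfp719 was not called without KO Cont replicate 2 or 3, KO LPA replicate 1 or 3, WT Cont replicate 2, 3 or 4 or WT LPA replicate 2 or 4. Zfp593 and Zfp882 overlap another protein-coding gene. For Zfp811 the difference was -0.71 ± 0.61 and was not called (adjusted p = 0.40). At the level with LPA, Zfp811 was lower in KO than in WT cells, with 0.170 to 0.486 CPM in KO LPA, against 0.679 to 1.24 CPM in WT LPA (-1.48 ± 0.33). Zfp503, also lower, had a difference of -0.88 ± 0.24, and Zfp667 was higher by 1.01 ± 0.23.

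For LPS the difference between the genotypes was called for no member and for 0% of all genes (edgeR). At an unadjusted p below 0.05 there were 9 of the 291 members, against 698 of all 11590 genes. DESeq2 called none of the members. For Zfp811 the LPS change in KO minus that in WT cells was 0.62 ± 0.49, for Zfp800 0.19 ± 0.12, for Zfp395 -0.03 ± 0.31 and for Zfp704 0.30 ± 0.21. None of the 4 passed the test, which does not show that the genotypes respond alike.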

How the data were processed

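The authors deposited a table of raw read counts per gene with gene lengths, which was used as it stood. All 24 count columns were matched to samples by title. Per the submitters' processing notes, reads were aligned with STAR 2.5.2a to mm10. How reads were counted (tool, strand, annotation) is not stated there. The table had been filtered on low values before deposition, since filterByExpr removed 0 of 11590 genes.

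Counts were tested with edgeR 4.0.16 (R 4.3.3, TMM, robust quasi-likelihood F test) with 6 group means over all 24 libraries, 18 residual degrees of freedom and Benjamini-Hochberg adjustment over all genes, called below 0.05. There were 9 comparisons. Each treatment was set against Cont within KO and within WT, KO was set against WT under each of the 3 conditions, and the LPA and LPS effects were subtracted between genotypes (KO minus WT). Errors of log2 changes are SE. The common coefficient of variation was 9.91%, and TMM factors were 0.739 to 1.18. The fits were tested on simulated counts. Replicates differed beyond counting noise (chi-square per degree of freedom of 4.09 to 77.2 over 36 pairs).

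Deviations of same-numbered KO libraries from their group means correlated at 0.114 to 0.772 over 12 pairs (median 0.325, against -0.122 for different numbers). In WT they correlated at 0.0692 to 0.626 (median 0.203, against -0.0603), and between genotypes at -0.576 to 0.177 (median -0.110, against 0.0436). The main fit did not use the replicate numbers.

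Gene positions and promoters are RefSeq's, on GRCm38.p6. KRAB matches came from a profile (pyhmmer 0.12.3) built from 113 KRAB sequences of translated GENCODE M21 transcripts. Fingers and SCAN were found as letter patterns, and BTB domains were not searched. Shared 51-base words were counted between transcripts of different genes. RPKM was computed from TMM-scaled CPM and the deposited length.

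The members and lists were chosen with earlier results of these data known. Named genes were, for each treatment in each genotype, the 6 largest called rises and falls with groups that do not overlap; for each comparison of genotypes, the 6 largest called each way; the 6 members of highest mean CPM; and up to 4 members of each role list by smallest p. Other genes named for a list, a cluster or as background were added outside this rule. Alternatives were other scalings, DESeq2 1.42.0, other filters (none, or a mean of at least 50 counts), the compared groups alone, thinning to the smallest library, a replicate block and leaving out each library.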

Additional observations from a re-analysis of the deposited data

Results flagged for a closer look

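In 7 of 246 groups of 4 libraries, 1 library of a named gene lay far from the other 3, and about 1 group in 20 would do so by chance. Zfp407 was at 28.2 CPM in WT LPA replicate 1 (29.5 to 29.6 CPM in the others), and Zfp551 at 0.792 CPM in KO LPA replicate 1 (1.24 to 1.31 CPM). Zfp568 was at 12.7 CPM in KO LPS replicate 2 (14.3 to 14.6 CPM), and Zfp667 at 0.485 CPM in KO LPS replicate 3 (0.0785 to 0.141 CPM). Zfp78 was at 2.57 CPM in KO LPA replicate 4 (1.80 to 1.93 CPM) and at 1.9 CPM in KO Cont replicate 2 (2.21 to 2.23 CPM). Zfp871 was at 106 CPM in WT Cont replicate 1 (122 to 124 CPM).

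The LPA change differed between KO and WT cells for 54 members by edgeR's test of the difference. Of the members named for it, KO minus WT was 1.19 for Zfp30, 1.09 for Zfp651, 0.97 for Zfp882, 0.89 for Zfp395, 0.87 for Zfp704 and 0.73 for Zfp658. It was -0.79 for Zfp800, -0.61 for Zfp593, -0.50 for Zfp131, -0.47 for Zfp263, -0.45 for Zfp275 and -0.40 for Zfp719. These values rest on the WT LPA libraries, of which replicate 3 lay nearest to untreated cells.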

How the results depend on the processing

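The total counts called for LPS moved by less than 1.5 times under every alternative run, from 212 to 279 members in WT (248 as reported) and from 211 to 271 in KO cells (246); the lowest are those without members of shared sequence. Of these, the counts that rose did move with library totals alone, to 15 in WT (42) and 14 in KO cells (40). Those of all genes moved as well, to 2387 in WT (4709) and 2428 in KO cells (4554). For LPA in WT cells the count of members ranged from 82 to 143 over the other settings and from 74 to 145 with 1 library left out. For KO against WT with LPA the range without 1 library was 108 to 175. With the replicate block, 92 members were called for KO against WT with LPA (143 without), 80 of them higher (128), and 85 for the LPA difference (54), 72 of them above 0 (44), 2 for LPA in KO (1) and 0 for KO against WT with LPS (1). For LPA in WT cells the block gave 141 (122). Over all genes the block gave 4204 for KO against WT with LPA (5830), 6150 for LPA in WT (5165) and 554 for LPA in KO (304). By the median correlation, same-numbered libraries were more alike than others within KO and within WT, but not across genotypes. For KO against WT with LPS, DESeq2, a mean of at least 50 counts, the compared groups alone and thinning each called 0, and library totals alone called 8. Leaving out 1 library gave 0 to 3 there, 1 to 2 for LPA in KO and 35 to 105 for the LPA difference. No filter gave the same fit. The count without members of shared sequence was chosen after seeing the data, and changed each count by less than 1.5 times.

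Of 83 named changes, those that turned sign did so with library totals alone, for LPS in WT cells: Zfp91 (-0.35), Zfp871 (-0.019), Zfp568 (-0.38) and Zfp638 (-0.37). With 1 library left out, 729 of 760 refits kept the call, and 31 lost it. Scarce members are limited by depth, with a median of 227 counts a member in KO Cont and 457 in WT Cont. Thinning all libraries to the smallest left 82 members called for LPA in WT cells and lost 8 of the 83 named calls.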
